A study of Homo sapiens with 4 samples.

Results

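The genes described here were higher on the array of doxycycline-treated ALDH-negative SUM159 cells than on that of their untreated control. There are 9 of them, of 19775 genes that had a probe set to themselves on the arrays: the peptide hormone gene NPPB, the matrix gene FBN2, the exchange factor DOCK4, the deubiquitinase UCHL1, the proton pump subunit ATP6V0D2, and the nuclear factors NPAS3, EN1, ATXN1 and IRF2BP1. They were chosen by their log2 levels in this one pair of arrays, the treated one lying 2-fold or more above the control, so that this difference is a description of the choice and supports nothing. All 29 probe sets annotated to these genes alone, of 54675 on the arrays, are accounted for below.

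SUM159 is an established human breast cancer line of mesenchymal character, here carrying the pTRIPZ construct, from which doxycycline induces the microRNA miR-100. All 4 groups carried the construct. Flow cytometry divided the cells by aldehyde dehydrogenase (ALDH) activity, which marks stem-like breast cancer cells, and the fractions were kept in suspension, which gave ALDH+ control, ALDH+ DOX, ALDH- control and ALDH- DOX. The titles and the treatment protocol name doxycycline and 10 h, whereas the sample descriptions name doxorubicin, another drug, and 13 h; DOX stands for the treated samples here. Each group held 1 array, so that differences between arrays carry no p-value and were not checked in replicates, and the number of arrays limits the precision. Doxycycline-treated cells lacking the construct were not analysed here, so that doxycycline itself and miR-100 cannot be told apart. In these bulk RNA samples a change in the make-up of the sorted cells and a change per cell cannot be told apart either.

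The inducible microRNA belongs to a family that shares its seed, the stretch by which a microRNA pairs with target messengers and lowers them. The mature sequences from RefSeq (GRCh38.p14) are those of miR-100, which the construct induces, and of its family members miR-99a and miR-99b. The seed, bases 2 to 8, is in capitals.
hsa-miR-100-5p: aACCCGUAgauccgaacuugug
hsa-miR-99a-5p: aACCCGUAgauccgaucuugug
hsa-miR-99b-5p: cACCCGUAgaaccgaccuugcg
All 3 carried the seed ACCCGUA. Whether miR-100 pairs with messengers of the genes described here was not tested, and the mature microRNA is not measured by these arrays.

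The 9 genes do not form 1 pathway. NPPB encodes the precursor of B-type natriuretic peptide, a hormone of heart muscle that lowers blood pressure through a guanylyl cyclase receptor. Fibrillin-2, from FBN2, builds microfibrils of the extracellular matrix together with fibrillin-1, mostly in development. UCHL1 is a ubiquitin hydrolase abundant in neurons, ATP6V0D2 is the form of the pump's d subunit known from osteoclasts and kidney, and NPAS3 and EN1 are transcription factors of the developing nervous system.

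The arrays had nearly equal medians, between 6.18 and 6.22 on the log2 scale. A log2 level of 6 was taken as the border of the background, and each gene was represented by its probe set of highest mean level. The ALDH- pair of arrays correlated with 0.996 over all probe sets and the ALDH+ pair with 0.983. All 12 markers of a mesenchymal breast line, such as VIM and CD44, reached the level on every array, while of 12 hormone receptor and luminal markers ESR1, PGR, CDH1, EPCAM, FOXA1, TFF1 and ERBB3 did so on none. The luminal keratins KRT18 (11.97 to 12.45), KRT7 (10.83 to 12.43) and KRT8 (9.93 to 10.51) and the factor GATA3 (7.10 to 9.42) reached it on all 4 arrays, and KRT19 on ALDH- DOX alone. ALDH1A1, an enzyme behind the sorted activity, was at 11.77 in ALDH+ control and 10.72 in ALDH- control, but at 10.66 in ALDH+ DOX and 10.86 in ALDH- DOX, so that its RNA did not follow the sort label in the treated cells. ALDH1A3, another such enzyme, was at 6.48, 6.64, 5.86 and 7.79 in ALDH+ control, ALDH+ DOX, ALDH- control and ALDH- DOX, highest in the treated ALDH- cells.

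In the ALDH- pair 32 of 11819 genes compared were 2-fold or more higher with DOX, a share of 0.271%, and 6 were lower, 0.0508%. A difference was called where it reached 1 on the log2 scale with a level of 6 on at least 1 of the 2 arrays. The 9 genes are among those 32, at ranks 3 (ATP6V0D2), 5 (UCHL1), 8 (NPPB), 9 (NPAS3), 21 (DOCK4), 24 (EN1), 25 (FBN2), 27 (IRF2BP1) and 30 (ATXN1). Around the border of the rule, MAMDC2 (1.03), SULF1 (1.06) and ATXN1 (1.07) lay just inside, and ARHGAP26 (0.99), ANTXR2 (0.96) and MYZAP (0.94) just outside, in log2 difference. Of the 9 genes, 4 lay under a level of 6 on the ALDH- control array and reached it on the ALDH- DOX array alone: UCHL1, NPPB, ATP6V0D2 and FBN2. They passed the filter on level only through the array on which they are high, so that they had to differ, and the size of their difference from background is uncertain.

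NPPB was the more sharply different of the 2 genes for secreted proteins. Its log2 level was 5.13 in ALDH+ control, 4.43 in ALDH+ DOX, 4.87 in ALDH- control and 6.93 in ALDH- DOX. The ALDH- DOX array alone was above background, and the other arrays lay within 0.71 of each other. The difference in the ALDH- pair was 2.06, or 4.16-fold, and 0.93 with levels under 6 set to 6. NPPB had 1 probe set, so that no other measured it.

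FBN2 stood at the border of detection. It was at 4.43 in ALDH+ control, 4.62 in ALDH+ DOX, 4.96 in ALDH- control and 6.08 in ALDH- DOX, a difference of 1.12 in the ALDH- pair. With levels under 6 set to 6 that difference was 0.08. Its other 2 probe sets lay under 4 on every array, at 3.55 and 3.85 for 1 of them and 3.40 and 3.48 for the other in ALDH- control and ALDH- DOX, so that 1 of 3 probe sets carried the call.

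DOCK4 encodes an exchange factor that acts in cell movement. It was expressed on all 4 arrays, at 7.90 in ALDH+ control, 8.33 in ALDH+ DOX, 9.80 in ALDH- control and 11.07 in ALDH- DOX. Both ALDH- arrays lay above both ALDH+ arrays, and in each fraction the DOX array was the higher of its pair. The difference with DOX was 1.27 in ALDH- cells and 0.43 in ALDH+ cells. A further probe set at the level in the ALDH- pair differed by 0.78 there, in the direction by which the gene was chosen. The 2 under the level on all arrays differed by 1.23 and 0.67, differences within the background that give no direction.

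UCHL1 was at 4.79 in ALDH+ control, 4.95 in ALDH+ DOX, 4.08 in ALDH- control and 6.89 in ALDH- DOX. Only the ALDH- DOX array was above background, and the ALDH- control array was the lowest of the 4. The difference in the ALDH- pair was 2.81, or 7.02-fold, and 0.89 with levels under 6 set to 6. This rests on a probe set of the kind that can hybridise to more than 1 transcript (name ending in _s_at). The other probe set of UCHL1 stayed between 3.62 and 3.71 on all arrays and differed by -0.03, a difference of background.

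ATP6V0D2 had the largest difference of the 9 as measured, but with levels under 6 set to 6 it came after NPAS3 (2.01) and DOCK4 (1.27). The probe set that stands for the gene was at 3.73 in ALDH+ control, 3.49 in ALDH+ DOX, 3.79 in ALDH- control and 7.14 in ALDH- DOX, a difference of 3.35 in the ALDH- pair (10.2-fold, and 1.14 with levels under 6 set to 6). The first 3 arrays lay within 0.29 of each other, all far under the level. A probe set not of the shared kind was at 4.0 in ALDH- control and 7.23 in ALDH- DOX, a difference of 3.23, and the last one went from 3.93 to 5.13. The 2 probe sets above background there were thus both higher in the treated ALDH- cells, the direction by which the gene was chosen. The last one stayed under the level and gives no direction.

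NPAS3, a transcription factor of the bHLH-PAS family, had 9 probe sets, of which 2 reached the level. The brightest was at 5.17 in ALDH+ control, 6.16 in ALDH+ DOX, 6.50 in ALDH- control and 8.51 in ALDH- DOX. The order of the arrays was the same as for DOCK4, with both ALDH- arrays above both ALDH+ arrays. The difference with DOX was 2.01 in ALDH- cells and 0.99 in ALDH+ cells. With levels under 6 set to 6 it stayed at 2.01 in ALDH- cells but was 0.16 in ALDH+ cells, and with the 9 probe sets averaged it was 0.73 and 0.19. The second probe set at the level was at 4.77, 4.59, 6.35 and 7.86 in the same order of arrays, a difference of 1.51 in ALDH- and -0.18 in ALDH+ cells. The 2 probe sets thus differed in the ALDH+ pair, where the second lay under the level on both arrays. All 9 were higher in ALDH- DOX than in ALDH- control, the direction by which the gene was chosen. The 7 under the level differed by 0.13 to 1.18, within the background, and give no direction.

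EN1, a homeobox factor of the midbrain and of limb patterning that is also expressed in basal-like breast cancers, was at 8.38 in ALDH+ control, 8.65 in ALDH+ DOX, 8.24 in ALDH- control and 9.36 in ALDH- DOX. The first 3 arrays lay within 0.42 of each other and the ALDH- DOX array above them. The difference in the ALDH- pair was 1.13, or 2.19-fold, on the only probe set of the gene.

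ATXN1 encodes ataxin-1, a nuclear protein that acts as a corepressor with Capicua (CIC). It was at 8.71 in ALDH+ control, 9.48 in ALDH+ DOX, 8.56 in ALDH- control and 9.63 in ALDH- DOX, so that both DOX arrays lay above both controls. The difference was 1.07 in ALDH- and 0.78 in ALDH+ cells. Its 5 probe sets were all higher with DOX in the ALDH- pair, by 0.76 to 1.07, and only the brightest reached 2-fold. In the ALDH+ pair they went apart: another shared probe set differed by -0.63, against 0.93, 0.16 and 0.02 for the 3 that are not shared.

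IRF2BP1, a partner of the interferon regulatory factor IRF2 in repression, was at 6.77 in ALDH+ control, 7.11 in ALDH+ DOX, 6.34 in ALDH- control and 7.43 in ALDH- DOX on its only probe set. The difference was 1.09 in ALDH- and 0.34 in ALDH+ cells. The ALDH- control array was the lowest and the ALDH- DOX array the highest of the 4.

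**Figure D1:**
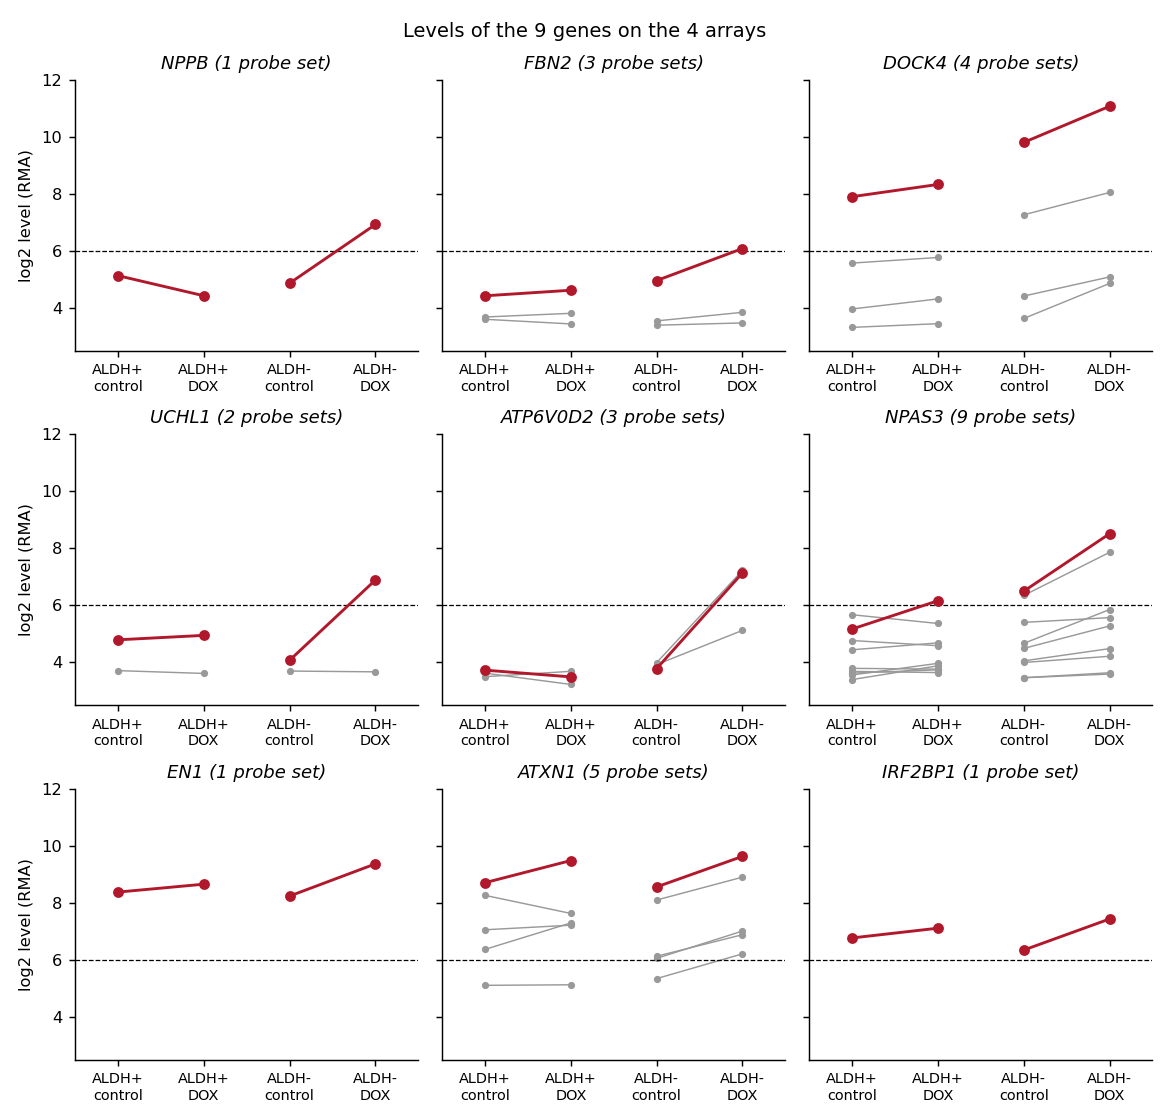
Log2 levels (RMA, vertical axis) of the 9 genes on the 4 arrays (horizontal axis). Each line is a probe set and joins the control and DOX array of a fraction, the red one stands for the gene, and the dashed line marks the level of 6. ATP6V0D2, UCHL1, NPPB and FBN2 cross the dashed line on the ALDH- DOX array alone, whereas DOCK4, EN1, ATXN1 and IRF2BP1 lie above it on all 4 arrays.

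Over all 29 probe sets of the 9 genes, 28 were higher in ALDH- DOX than in ALDH- control, with a median difference of 0.95. Among all 41097 probe sets with 1 gene, 47.7% were higher. Since the choice of the genes fixed this direction, the counts are a description only. In that pair 16 of the 29 reached a level of 6, and 11 of these were 2-fold or more higher. The 11 take in the 9 probe sets that stand for the genes, for which the choice fixed the call. The others were a further probe set of ATP6V0D2 (3.23) and a further one of NPAS3 (1.51).

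The ALDH+ pair, which shares no array with the comparison that chose the genes, called none of the 9. There 422 of 12151 genes were 2-fold or more higher with DOX, 3.47%, and 280 were lower, 2.3%. NPAS3 (0.99) and ATXN1 (0.78) came nearest, at the 96.4th and 92.3rd percentile of all genes compared, followed by DOCK4 (0.43, 75.8th), IRF2BP1 (0.34, 69.5th) and EN1 (0.28, 64.2nd). The place of NPAS3 rests on a control level under background: with levels under 6 set to 6 it was 0.16, the lowest of these 5. All 5 were at the level on at least 1 array of this pair and all lay above 0, as did 60.9% of all genes compared. UCHL1 (0.16), FBN2 (0.19), ATP6V0D2 (-0.24) and NPPB (-0.71) were under the level on both ALDH+ arrays, and differences within the background give no direction.

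The median difference of the 9 genes in the ALDH+ pair was 0.28, and 0.16 with levels under 6 set to 6. It takes in all 9, of which only 5 were at the level there. The median of the 12151 genes compared, all at the level, was 0.12 without that floor, so that the sets are unlike. The median of all genes was 0.10 both with arrays centred on their medians and with cyclic loess. Relative to the median of all genes, NPAS3 was at 0.87, ATXN1 at 0.66, DOCK4 at 0.31, IRF2BP1 at 0.22 and EN1 at 0.16. The spread over all genes was wider in this pair, where 95% of absolute differences lay under 1.05, than in the ALDH- pair, where 95% lay under 0.39. Over all 29 probe sets 19 were above 0 in the ALDH+ pair, 65.5%, against 51.1% of all probe sets with 1 gene. Only 8 of the 29 reached the level in that pair, 7 of them above 0, and the rest are differences within the background. Probe sets of 1 gene are not independent, and NPAS3 had 9 of the 29 and ATXN1 5.

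**Figure D2:**
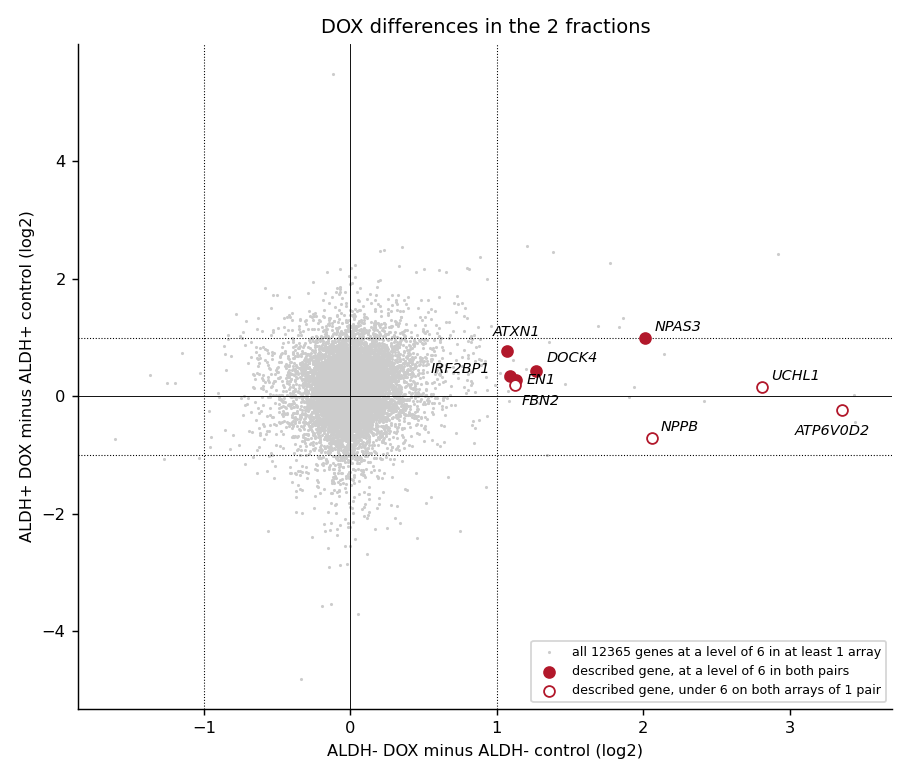
Difference with DOX in ALDH- cells (horizontal axis, log2) against that in ALDH+ cells (vertical axis, log2) for 12365 genes at a level of 6 on at least 1 array (grey) and the 9 genes (red). Dotted lines mark 2-fold, and open circles mark genes under the level on both arrays of a pair. All 9 lie right of 1, by the choice of the genes, and between -0.71 and 0.99 on the vertical axis.

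The difference between the fractions' responses is given without a test, because the choice of the genes entered it. It was 3.59 for ATP6V0D2, 2.76 for NPPB, 2.66 for UCHL1 and 0.93 for FBN2, the 4 genes detected only in treated ALDH- cells. These values rest on levels under background, and with levels under 6 set to 6 they were 1.14, 0.93, 0.89 and 0.08 in the same order. NPAS3 moved the other way, from 1.02 to 1.85, the highest of the 9 with that floor. EN1 (0.85), DOCK4 (0.84), IRF2BP1 (0.75) and ATXN1 (0.29) lay above the level on all arrays and kept their values. For ATXN1 the differences with DOX were thus nearly as large in ALDH+ as in ALDH- cells on its brightest probe set, which its other probe sets did not all share. Of the 32 genes raised in the ALDH- pair, 6 were also called higher in the ALDH+ pair and none lower, and none of the 6 is among the 9.

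DOCK4 and, on its brightest probe set, NPAS3 also differed between the fractions. In the untreated arrays NPAS3 was 1.33 lower and DOCK4 1.90 lower in ALDH+ than in ALDH- cells (log2 differences of -1.33 and -1.90). EN1 (0.14), ATXN1 (0.15) and IRF2BP1 (0.42) were also at the level there. UCHL1, NPPB, ATP6V0D2 and FBN2 lay between -0.53 and 0.72, but were under the level on both untreated arrays and could not be called. The ALDH+ control level of NPAS3 was under background, and its difference was -0.50 with levels under 6 set to 6 and -0.47 with its probe sets averaged, both short of 2-fold. DOCK4 stayed at -1.90 with that floor and was at -1.09 with its probe sets averaged. In that comparison 530 of 12052 genes were 2-fold or more lower in ALDH+ cells, 4.4%, and 734 higher, 6.09%. Of the 9 genes 5 were at the level there, and 2 of these were called lower and none higher. It shares the ALDH- control array with the comparison that chose the genes. The further NPAS3 probe set at the level differed by -1.58 and that of DOCK4 by -1.69 in the untreated arrays, on the same side as the brightest. Their ALDH+ control levels, 4.77 and 5.57, were under background, so that the size of both differences is uncertain. In ALDH- control they were at 6.35 and 7.27.

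In the treated arrays all 9 lay lower in ALDH+ than in ALDH- cells, from -0.15 for ATXN1 to -3.65 for ATP6V0D2, and 6 passed 2-fold: ATP6V0D2, DOCK4 (-2.74), NPPB (-2.50), NPAS3 (-2.35), UCHL1 (-1.94) and FBN2 (-1.46). Among all genes 650 of 12228 were lower there, 5.32%, and 1396 higher, 11.4%. Nothing is read from these 6, because the ALDH- DOX array is the one on which the genes were chosen to be high.

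**Figure D3:**
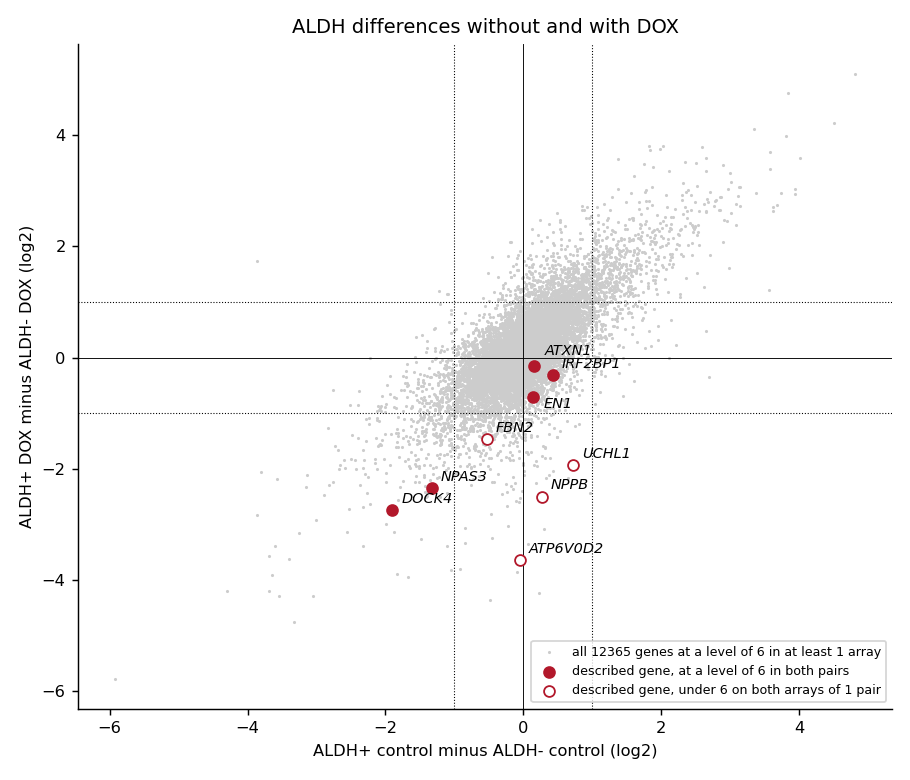
ALDH+ minus ALDH- difference in the control arrays (horizontal axis, log2) against that in the DOX arrays (vertical axis, log2) for 12365 genes at a level of 6 on at least 1 array (grey) and the 9 genes (red). Dotted lines mark 2-fold and open circles mark genes under the level on both arrays of a pair. DOCK4 and NPAS3 lie past 2-fold on both axes, NPAS3 with an ALDH+ control level under background. ATP6V0D2, NPPB, UCHL1 and FBN2 do so on the vertical axis alone.

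A limma model of ALDH fraction plus DOX, fitted to all 4 arrays over 12365 genes, gave the mean ALDH difference with an error. It left 1 residual degree of freedom, counts a response that differs between fractions as error, and its p-values reflect only how these arrays vary, which may be technical. At a Benjamini-Hochberg adjusted p under 0.05 it called 1184 genes lower in ALDH+ cells, 9.58%, and 1672 higher, 13.5%. DOCK4 was lower by -2.32 ± 0.28 (SE, limma adjusted p = 0.000128) and NPAS3 by -1.84 ± 0.31 (SE, limma adjusted p = 0.00155), and both were lower in ALDH+ cells with and without DOX on their brightest probe sets. ATP6V0D2 at -1.85 ± 0.58 (SE, limma adjusted p = 0.0360) and FBN2 at -0.998 ± 0.31 (SE, limma adjusted p = 0.0346) passed too. For all 9 genes the mean takes in the ALDH- DOX array, on which they were chosen to be high, so that these p-values are not independent of the choice and are given as a description. ATP6V0D2, FBN2, NPPB and UCHL1 also entered this model only because that array reached a level of 6. Nothing is read from whether these genes passed. The control arrays alone put DOCK4 at -1.90 and NPAS3 at -1.33, and ATP6V0D2 at -0.06 and FBN2 at -0.53, the last pair both from background.

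The calls of ATP6V0D2 and FBN2 ended under some other settings. All settings used the same arrays, among them the ALDH- DOX array on which the genes were chosen to be high. Passing under them is therefore a description of the settings and no independent check of a difference between the fractions. The limma adjusted p of ATP6V0D2 ranged from 0.0229 to 0.429 over 9 alternatives and was 0.101 after cyclic loess. That of FBN2 ranged from 0.0328 to 0.888 over 7 alternatives and was 0.0680 after cyclic loess. DOCK4 passed in all 9 alternatives, with a limma adjusted p of at most 0.0174. NPAS3 passed in all 8 that could be fitted for it, with at most 0.0310, and with its probe sets averaged it lay under the level on all arrays. The other 5 genes did not pass, among them NPPB at -1.12 ± 0.48 (SE, limma adjusted p = 0.112), UCHL1 at -0.61 ± 0.47 (SE, limma adjusted p = 0.376) and EN1 at -0.29 ± 0.29 (SE, limma adjusted p = 0.518). ATXN1 and IRF2BP1 had mean ALDH differences of 0.00 and 0.05.

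Likeness between the genes was measured as the Euclidean distance between their 4-array log2 profiles, each centred on its mean, so that a smaller value is more alike. ATXN1 and IRF2BP1 were the closest of the 9 (0.31), followed by EN1 with IRF2BP1 (0.34) and with ATXN1 (0.46). NPAS3 and DOCK4 were 0.82 apart and UCHL1 and NPPB 0.95. The distances describe 4 arrays, 2 of which chose the genes.

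Among all genes at the level, the nearest to ATP6V0D2 were the collagen gene COL1A2 (0.28) and the matrix gene POSTN (0.59), then PTGIS (0.88), the prostacyclin synthase. PTGIS was also the nearest to NPPB (0.54), before PRKCA-AS1 (0.76) and LINC01812 (0.78). UCHL1 was nearest to the chemokine CCL2 (0.67), ALDH1A3 (0.71) and PTGIS (0.75). PTGIS itself was at 4.16, 4.08, 4.20 and 6.62 in ALDH+ control, ALDH+ DOX, ALDH- control and ALDH- DOX, with the single high array that marks this group. All these neighbours are among the 32 genes raised in the ALDH- pair.

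The other 6 genes had other neighbours. NPAS3 was nearest to DOCK4 (0.82), ANTXR2 (0.90) and MEF2C (0.90), and DOCK4 to NTS (0.33), STC1 (0.64) and TRPA1 (0.73). EN1 was nearest to FBF1 (0.21), PXDN (0.27) and VEGFC (0.28), and ATXN1 to THBS2 (0.15), SETBP1 (0.28) and SLC22A23 (0.30). IRF2BP1 was nearest to PLEKHA5 (0.28), HEY1 (0.28) and ATXN1, and FBN2 to ULBP2 (0.28), LPAR3 (0.30) and CHST7 (0.30). THBS2, nearest to ATXN1, was at 6.86, 7.72, 6.85 and 7.73 in the same order of arrays, with both DOX arrays above both controls.

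Relatives of the 9 genes were examined in 9 lists of paralogs and partners, 128 genes besides the 9, of which 93 were compared in the ALDH- pair. None of the 93 was 2-fold different there in either direction, against 0.271% higher and 0.0508% lower of all genes, and they ranged from -0.40 (NPR3) to 0.50 (ADAMTS10) with a median of 0.02. With shares this small, few or no calls among 93 genes would be ordinary, and no p-value applies with 1 array a group. In the ALDH+ pair 7 of 94 relatives were higher, 7.45%, and 3 lower, 3.19%, against 3.47% and 2.3% of all genes.

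Besides NPPB, which was chosen for its call, 6 genes of the natriuretic peptide system were compared in the ALDH- pair and none was called. The NPPB paralog NPPA was at 7.10 in ALDH- control and 7.01 in ALDH- DOX. The receptor NPR1 was at 6.75 and 6.68, and the clearance receptor NPR3 at 10.65 and 10.25. In the ALDH+ pair NPR3 differed by -1.31, the only called gene of the list there. CORIN, a protease that activates the related atrial peptide, differed by 0.28 in ALDH- cells.

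Besides ATP6V0D2, which was chosen for its call, 19 V-ATPase subunits were compared in the ALDH- pair and none was called. The broadly expressed form of the d subunit, ATP6V0D1, was at 10.15 in ALDH- control and 10.14 in ALDH- DOX. In the ALDH+ pair ATP6V0D1 (1.12) and ATP6V0C, the proton-carrying ring subunit (1.12), were 2-fold higher. The osteoclast list, in which ATP6V0D2 has its best known setting, had 3 of 8 members on the array at the level on any array. TNFRSF11A, the receptor RANK, was at 9.41 and 9.64 and NFATC1 at 6.36 and 6.40 in ALDH- control and ALDH- DOX. CTSK was under the level there, at 5.22 and 5.51, and reached it on ALDH+ DOX alone, at 7.27.

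Matrix genes of the fibrillin list besides FBN2 had a median of 0.15 over 19 compared in the ALDH- pair and 0.44 over 19 in the ALDH+ pair, against 0.00 and 0.12 for all genes. None of these 19 was called in ALDH- cells, where FBN1 differed by 0.39. In ALDH+ cells LOXL1 (1.76), FBN1 (1.69), LTBP1 (1.47) and EFEMP2 (1.19) were 2-fold higher and none was lower.

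The remaining lists held no second called gene in ALDH- cells. Of 3 ubiquitin hydrolases compared, UCHL3 differed by 0.01 and UCHL5 by -0.15. Of 14 bHLH-PAS genes, NPAS2, the factor nearest to CLOCK in function, differed by 0.37 and HIF1A by 0.06. EN2, the other engrailed gene, was at 9.96 in ALDH- control and 9.83 in ALDH- DOX. Among 16 DOCK, ELMO and GTPase genes DOCK3 differed by -0.38 and DOCK1 by 0.28, and in ALDH+ cells DOCK11 was higher (1.10) and the GTPase CDC42 lower (-1.05).

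Ataxin-1 and Capicua repress ETS factors and feedback inhibitors of ERK signalling. With ATXN1 at 1.07 in the ALDH- pair, its paralog ATXN1L was at -0.05, CIC at -0.05, and the repressed genes ETV1 at 0.30, ETV4 at -0.12, ETV5 at 0.04 and DUSP6 at 0.13. None of the others in this list was called in ALDH- cells, and SPRY2 (-1.16) was the only one called in ALDH+ cells. Of the IRF2 group IRF2BP2 differed by 0.11, IRF2BPL by 0.08 and IRF2 by -0.10 in ALDH- cells.

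**Figure D4:**
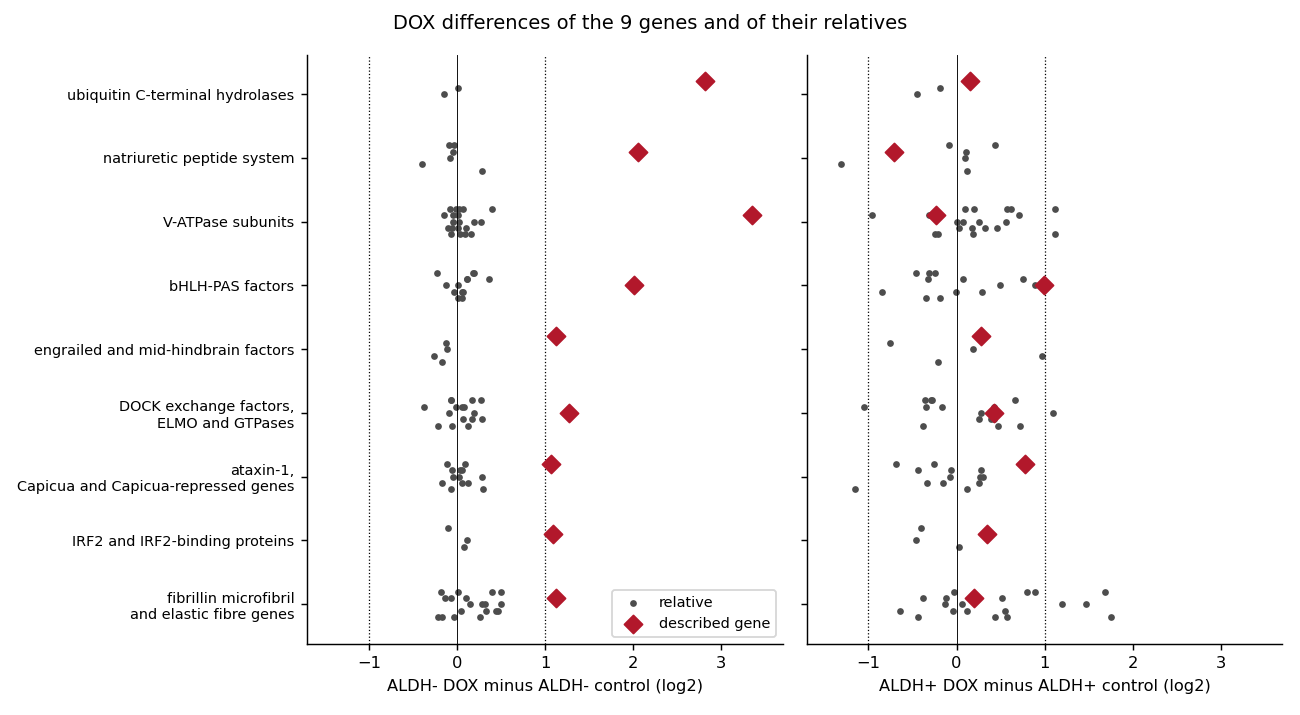
Differences with DOX (horizontal axes, log2) in ALDH- cells (left) and ALDH+ cells (right) for genes of the 9 lists (vertical axis) that reached a level of 6 on at least 1 array. Red diamonds are the 9 genes, grey points their relatives, placed at small vertical offsets, and dotted lines mark 2-fold. In the left panel no relative passes 2-fold.

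Markers of other cell types were set beside these values, because several of the 9 are best known from neurons, osteoclasts or heart muscle. Of 16 neuronal markers 7 were compared in the ALDH- pair, with a median of -0.12 and none called. SNAP25 was the furthest, at 7.05 in ALDH- control and 6.21 in ALDH- DOX, and GAP43, ELAVL3 and RBFOX3, near the level, were slightly lower too. TUBB3 (12.75 and 12.91), MAP2 (10.42 and 10.64) and CHGB (6.81 and 6.95) were slightly higher, the first and second of them highly expressed. Of 9 cardiac genes on the array only NKX2-5 reached the level, at 7.86 and 7.78. Among 10 fibroblast and pericyte genes, COL1A2 (4.48 in ALDH- control and 7.91 in ALDH- DOX) and POSTN (5.20 and 8.65) were called higher in the ALDH- pair, while the median of the 8 compared was 0.00. Of the list, 6 genes reached the level in ALDH- control and 8 in ALDH- DOX, and the sum of its linear levels was 8611, 13621, 12612 and 13659 in ALDH+ control, ALDH+ DOX, ALDH- control and ALDH- DOX. Their part in the differences of the 9 genes was not tested. KRT19, a luminal keratin, was also higher (5.17 and 6.46).

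RefSeq promoters, 250 bases before to 50 after the start (GRCh38.p14), were found for 6 of the 9 genes. Those of 3 genes are printed because they stand for the patterns seen: UCHL1, detected only in treated ALDH- cells; DOCK4, higher in ALDH- cells with and without DOX; and FBN2, at the border of detection. Capitals mark matches on either strand. The TATA box was searched as TATAAA. The GC box was searched as GGGCGG, and the AP-1 motif loosely as TGANTCA, where N is any base. For the E-box the letters were CACGTG, and for the CCAAT box its name gives them.
UCHL1, chr4:41256678-41256977, plus strand: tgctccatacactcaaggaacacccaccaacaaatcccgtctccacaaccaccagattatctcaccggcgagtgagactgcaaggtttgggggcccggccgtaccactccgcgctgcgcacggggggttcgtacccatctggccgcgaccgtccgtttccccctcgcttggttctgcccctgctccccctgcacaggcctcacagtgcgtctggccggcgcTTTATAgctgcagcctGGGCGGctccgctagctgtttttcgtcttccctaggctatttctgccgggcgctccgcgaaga
DOCK4, chr7:112206350-112206649, minus strand: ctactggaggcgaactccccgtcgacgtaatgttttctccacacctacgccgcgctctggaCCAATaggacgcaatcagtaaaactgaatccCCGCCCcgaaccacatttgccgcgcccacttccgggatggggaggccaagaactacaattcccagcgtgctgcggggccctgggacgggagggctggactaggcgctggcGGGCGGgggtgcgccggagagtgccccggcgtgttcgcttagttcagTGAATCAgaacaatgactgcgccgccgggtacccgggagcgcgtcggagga
FBN2, chr5:128538196-128538495, minus strand: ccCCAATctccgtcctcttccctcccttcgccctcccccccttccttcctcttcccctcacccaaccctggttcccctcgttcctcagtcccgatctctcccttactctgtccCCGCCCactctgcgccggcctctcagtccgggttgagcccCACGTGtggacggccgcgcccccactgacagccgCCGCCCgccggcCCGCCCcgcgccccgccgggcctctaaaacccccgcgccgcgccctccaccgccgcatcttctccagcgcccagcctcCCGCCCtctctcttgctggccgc
UCHL1 had a TATA box match on the strand opposite to transcription, printed as TTTATA, with its first printed base at -29 from the start. A match on either strand anywhere in the window was held by 11.5% of 35116 promoters of this length. UCHL1 also had a GC box match at -13. DOCK4 had a match to the loose AP-1 letters at -1, with A as the middle base. A match with any middle base was held by 7.71% of promoters. DOCK4 also had a CCAAT match at -189 (34.6%) and GC box matches at -158 and -48 (45%). FBN2 had an E-box match at -97 (7.26%), which contains the shorter bHLH-PAS core ACGTG on both strands (21.4%), a CCAAT match at -248 and 4 GC box matches.

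Over the 7 promoters of the 6 genes, ATXN1 having 2, the GC box was found in 6, against 45% of all promoters. CCAAT was found in 3, against 34.6%. The TATA box (11.5% of all promoters), the AP-1 motif (7.71%) and the E-box (7.26%) were found in 1 each, in 3 different genes. With so few promoters these counts are a description only. GC content ranged from 63.0% (UCHL1) to 83.0% (NPAS3), against a median of 58.7% over all promoters. A match describes letters in this window and is not a binding site.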

How the data were processed

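The authors deposited log2 values per probe set, made with RMA (background correction, quantile normalization and probe summary) per the submitters' processing notes, which name no version. They were used without further scaling. Of 54675 probe sets, 62 were controls, 41097 had 1 gene in the array's annotation table, 1801 several and 11777 none; those with 1 gene were used, and no symbol changed when updated by gene identifier. A difference was called at 2-fold with a log2 level of 6 on at least 1 of the 2 arrays. The mean ALDH difference was fitted with limma 3.58.1 (lmFit, eBayes with trend; prior of 11.6 degrees of freedom) in R 4.3.3, after a test on simulated data. Other work used Python 3.11.15.

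The genes described, the lists of relatives and the tests were chosen with earlier results of these data known. Named are all 9 genes, the 3 genes on each side of the threshold, the 3 nearest profiles per gene, and up to 4 relatives a list that were called or are close paralogs; other genes of a list were named after their values were seen. Alternatives were median centring, cyclic loess, no level filter, a level of 7, a floor of 6, averaging the probe sets of a gene, no shared probe sets (_s_at or _x_at), 1.5-fold, and eBayes without trend or robust.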

Additional observations from a re-analysis of the deposited data

Results flagged for a closer look

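NPPB and ATP6V0D2 lay on opposite sides of 0 in the 2 fractions. NPPB differed with DOX by 2.06 in ALDH- and by -0.71 in ALDH+ cells, and ATP6V0D2 by 3.35 and -0.24. The difference between the fractions was not tested, as each rests on 1 pair of arrays, the ALDH- values chose the genes, and both ALDH+ values are differences of background.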

How the results depend on the processing

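Centring each array on its median and cyclic loess left all 9 genes 2-fold or more higher in the ALDH- pair. That count was 4 when the probe sets of a gene were averaged, 6 at a level of 7 and with values under 6 set to 6, and 7 without shared probe sets, where UCHL1 was at -0.027, from a probe set under the level. None of the 9 was called in the ALDH+ pair under any setting at 2-fold; at 1.5-fold 2 were higher. Their median there was 0.16 with values under 6 set to 6.

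The mean of probe sets gave 18 genes higher in the ALDH- pair and 248 in the ALDH+ pair, and 1.5-fold gave 136 and 1780, with 829 lower in the ALDH+ pair. The mean ALDH difference passed for 2 of the 9 after cyclic loess, without a level filter, with values under 6 set to 6 and without trend, for 1 with the mean of probe sets, for 3 at a level of 7 and with robust estimation, and for 4 in the other settings. That of ATXN1 was -0.027 after centring, -0.018 after cyclic loess and -0.057 with the mean of probe sets, against 0.00. Over 5 settings, 149 of 180 differences of single genes moved by less than 0.5. No paired analysis was possible because each group held 1 array, with no replicate numbers to serve as a block; the limma model compared the fractions within each treatment instead. The cause of these changes was not tested, and no replicate could be left out.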
